A study of Mus musculus with 15 samples.

Results

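The IL-6 family was measured in Mouse Embryonic Fibroblasts (MEFs) of the 3T3 line, a Balb/c line grown from a single clone, on 15 one-colour arrays. The 9 members were set by name, with no measured value in the rule but with earlier results of these data known: the ligands Il6, Il11, Lif and Clcf1, the ligand-binding receptors Il6ra and Il11ra1, and the signalling receptors Il6st, Osmr and Lifr. They were found through the RefSeq transcript given for each probe, which returned 15 of the 56605 probes of the array that were not controls. All 9 members and all 15 probes were among the 29333 probes tested. The 5 groups held 3 arrays each. Control MEFs were left untreated. Treated MEFs received 10 ng/ml of TNFα, 5 ng/ml of TGFß1, 1 ng/ml of IL-1β, or 20 ng/ml of IL-6 together with 25 ng/ml of its soluble receptor sIL-6Rα, and this last group is called IL-6 MEFs. All groups were the same line in the same serum-supplemented medium. Arrays of untreated, TNFα and TGFß1 MEFs are described as taken after 24 h of stimulation, while the labels name 24 h or 72 h for all groups alike, so that the exposure of the IL-1β and IL-6 groups is not settled. Arrays are called by their group and the number that opens their label.

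Cytokines of the IL-6 family signal through receptor complexes that share the chain gp130, encoded by Il6st. IL-6 and IL-11 first bind their own receptor, which carries no signal itself, and then pair gp130 with a further gp130 chain, whereas LIF and CLCF1 join it to the LIF receptor, and oncostatin M joins it to the oncostatin M receptor. Bound complexes activate Janus kinases, then STAT3 and the MAP kinase pathway, and STAT3 switches on Socs3, which encodes an inhibitor of the same complex. A soluble IL-6 receptor lets IL-6 reach cells that carry gp130 but little IL-6 receptor, a route known as trans-signalling, and fibroblasts are known as producers of IL-6, IL-11 and LIF.

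Promoters are shown for the 3 ligands with a call against control (Il6, Il11 and Lif) and for Osmr, the receptor with the lowest p under IL-6. They were taken from RefSeq (GRCm38.p6), each with 250 bases before and 50 bases after an annotated start, 5′ to 3′ on the strand of the gene. The table held 11 such windows for 8 of the 9 members; Clcf1 was not matched. Capitals mark matches, on either strand, to the NF-kB consensus, the AP-1 motif TGANTCA, the STAT motif TTCNNNGAA and the SMAD motif CAGAC.

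Il6, chr5:30012864-30013163, plus strand: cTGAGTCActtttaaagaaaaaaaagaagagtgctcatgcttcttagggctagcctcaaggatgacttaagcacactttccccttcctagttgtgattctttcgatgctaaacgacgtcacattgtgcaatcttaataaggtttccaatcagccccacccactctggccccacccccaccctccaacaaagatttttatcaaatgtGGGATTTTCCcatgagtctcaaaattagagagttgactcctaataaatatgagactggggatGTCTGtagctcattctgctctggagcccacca

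Lif, chr11:4257318-4257617, plus strand: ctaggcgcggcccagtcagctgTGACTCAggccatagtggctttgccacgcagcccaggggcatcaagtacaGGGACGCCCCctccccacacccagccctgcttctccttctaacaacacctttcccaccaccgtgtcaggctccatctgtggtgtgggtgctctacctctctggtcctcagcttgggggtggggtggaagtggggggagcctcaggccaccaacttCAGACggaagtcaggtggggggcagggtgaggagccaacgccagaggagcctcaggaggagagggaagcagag

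Il11, upstream start, chr7:4782808-4783107, minus strand: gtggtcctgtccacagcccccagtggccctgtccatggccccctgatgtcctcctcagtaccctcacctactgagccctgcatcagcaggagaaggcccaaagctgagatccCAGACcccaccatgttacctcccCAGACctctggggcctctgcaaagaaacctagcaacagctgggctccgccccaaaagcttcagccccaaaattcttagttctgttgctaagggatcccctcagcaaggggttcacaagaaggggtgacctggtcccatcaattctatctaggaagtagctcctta

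Il11, downstream start, chr7:4778092-4778391, minus strand: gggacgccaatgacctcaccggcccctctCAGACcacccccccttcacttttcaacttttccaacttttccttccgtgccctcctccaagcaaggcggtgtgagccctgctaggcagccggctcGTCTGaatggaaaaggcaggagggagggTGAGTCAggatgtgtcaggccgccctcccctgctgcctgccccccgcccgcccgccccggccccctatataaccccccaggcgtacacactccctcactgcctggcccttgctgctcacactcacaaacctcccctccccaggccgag

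Osmr, chr15:6874264-6874563, minus strand: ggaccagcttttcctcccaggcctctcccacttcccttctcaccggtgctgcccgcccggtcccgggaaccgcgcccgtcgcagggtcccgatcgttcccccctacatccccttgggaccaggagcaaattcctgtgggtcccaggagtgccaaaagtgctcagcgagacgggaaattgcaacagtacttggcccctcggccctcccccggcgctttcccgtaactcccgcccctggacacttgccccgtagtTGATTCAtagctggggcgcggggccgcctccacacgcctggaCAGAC

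Counting from 1 at the first transcribed base, with no base 0, the NF-kB match of Il6 (GGGATTTTCC) lay at bases -44 to -35 and its AP-1 match at -249 to -243. In Lif the NF-kB match, which reads as the consensus on both strands, lay at -178 to -169 and the AP-1 match at -228 to -222. The AP-1 match of Il11 lay at -98 to -92 of its downstream start, and that of Osmr at 4 to 10. NF-kB matches were found in 2 of the 8 members (Il6 and Lif), AP-1 matches in 4 (Il6, Lif, Il11 and Osmr), SMAD matches in 6 and STAT matches in 0. Some members had 2 windows. By window, NF-kB matches were found in 2 of 11, AP-1 matches in 4, SMAD matches in 8 and STAT matches in 0. Among all 32851 promoter windows of the table, which have the same length, 8.46% held the NF-kB consensus, 7.81% the AP-1 motif, 8.30% the STAT motif and 49.6% the SMAD motif. No match overlapped that of another motif. These are matches of letters in short windows, and no binding was measured.

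Levels are given as the log2 processed signal of an array minus its 75th percentile, so that 0 is the brightness that 75% of the spots of that array do not exceed. They compare arrays for 1 probe and not 1 gene with another. A probe is called well above background where the scanner software marked at least 0.5 of its spots so. A member was called changed when limma, fitted over all 15 arrays and all tested probes, gave a q-value under 0.05 and an absolute fold-change of at least 1.5. Where a gene had several probes, the brightest one is given first. The arrays behaved alike as a whole: 48.3% to 54.8% of the probes were well above background and the 75th percentile lay between 501 and 674. The 15 arrays lay on 2 slides, and by label number they fall into 3 runs of 5, namely arrays 1 to 5, arrays 6 to 10 and arrays 11 to 15, in which every group has 1 array. With group and slide removed, all 30 pairs of arrays of the same run had a Pearson r over 0.1 across probes (0.114 to 0.672). Of the 60 pairs of arrays that differed in both run and group, 2 did. With the group removed, the 3 values of a group sum to 0. Positive r within runs then forces lower r between runs, so this contrast is partly built in. The labels do not say what a run is, so that results are given without the run first, and with slide and run in the model where a call changed.

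As a check of the labels, genes known to answer each cytokine were read first. Socs3 rose in MEFs treated by IL-6 (log2 fold-change 2.39 ± 0.20 SE, q = 0.00115) and was not called with the other 3 cytokines. Smad7 and Skil, which TGFß1 is known to switch on, rose in TGFß1 MEFs by 2.01 and 1.51. Of Tnfaip3, Nfkbia and Birc3, which NF-kB switches on, 3 of 3 rose in TNFα MEFs (3.84, 2.42 and 2.25) and 2 of 3 in IL-1β MEFs (Tnfaip3 1.34 and Nfkbia 1.11). All 10 fibroblast markers were well above background on all arrays, and their summed level lay between 9.34 and 10.1 in all groups. Of them 1 rose and 3 fell with TNFα, and 2 rose and 2 fell with TGFß1. Among all probes tested, 4.15% were called higher and 6.01% lower with TNFα, and 7.26% and 10.7% with TGFß1. Of the leukocyte markers, Ptprc and Adgre1 were above background on no array, whereas 4 of 7 were above it on all. These were Itgam (2.56 to 3.88), Cd68, Csf1r and Cd3e. Of the endothelial markers, Cdh5, Kdr and Tek were above it on none and 1 of 4 on all (Pecam1). No epithelial marker was above background on all arrays and Cdh1 on none, but the summed epithelial level was highest with TGFß1 (-2.80 to -1.38, against -4.58 to -3.01 in control) and Krt8 was above background on the 3 TGFß1 arrays, on 1 IL-6 array and on no other. Krt18 was above background on 10 arrays. The part of the keratin signal in the TGFß1 results below was not tested.

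**Figure D1:**
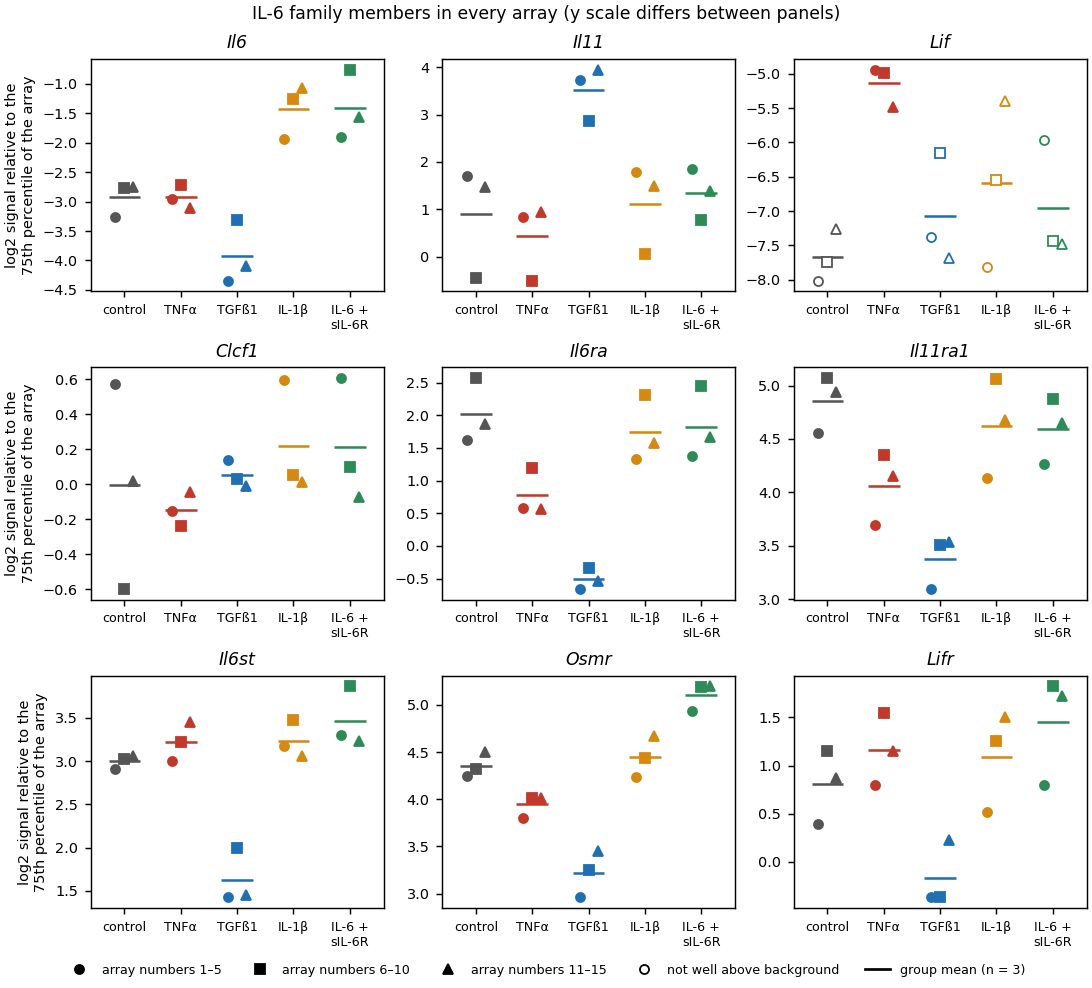
Level of each IL-6 family member on every array (log2 signal relative to the 75th percentile of the array, y axis) in the 5 groups (x axis). Each point is 1 array, its shape gives the run of label numbers, open points are not well above background, and lines are group means of 3 arrays. TGFß1 MEFs were the lowest group for the receptors and the highest for Il11.

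Each value is an average over all cells of a culture, so that fewer cells that carry a transcript and less of it per cell cannot be told apart. Among the ligands, Il6, the cytokine that names the family, was measured at -3.26, -2.77 and -2.76 in control arrays 1, 6 and 11. TNFα arrays 4, 9 and 14 gave -2.95, -2.72 and -3.11, overlapping control. TGFß1 arrays 2, 7 and 12 gave -4.34, -3.31 and -4.10. All 3 TGFß1 arrays were below all controls, although TGFß1 7 was close to control 1. IL-1β arrays 5, 10 and 15 gave -1.93, -1.26 and -1.08, and IL-6 arrays 3, 8 and 13 gave -1.90, -0.76 and -1.56. All 6 of these arrays were above every array of the other 3 groups. The group means thus ran from IL-6 and IL-1β (-1.41 and -1.42) through TNFα and control (both -2.93) to TGFß1 (-3.92). IL-6 and IL-1β did not differ beyond the spread between arrays, nor did TNFα and control.

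The log2 fold-change of Il6 against control was 0.00 with TNFα (95% interval -0.72 to 0.72, q = 1.00). With TGFß1 it fell by 0.99 (SE 0.33, q = 0.0452). This call was lost without control 6, control 11, TGFß1 2 or TGFß1 12, where q-values were 0.117, 0.121, 0.168 and 0.131. The difference was -0.30 on slide 1 and -1.45 on slide 2. The other Il6 probe gave -1.30 (q = 0.0516), with TGFß1 2 and TGFß1 12 not well above background. With IL-1β, Il6 was at 1.51 (SE 0.33) and with IL-6 at 1.52 (SE 0.33), 2.84 and 2.87 times the control level, but the q-values over all probes were 0.135 and 0.247 and neither was called. Its other probe gave 1.73 and 1.66, with all treated arrays above all controls as well. On slides 1 and 2 the IL-1β difference was 1.41 and 1.69, and the IL-6 difference 1.68 and 1.21. Adding slide and run to the model left these log2 fold-changes as they were, with an SE of 0.22 and q-values of 0.0106 and 0.0158, and both were called.

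Il11, a ligand known from stromal cells, was at 1.70, -0.45 and 1.48 in control arrays 1, 6 and 11. TGFß1 arrays 2, 7 and 12 gave 3.73, 2.86 and 3.95, all above every other array of the series. TNFα arrays gave 0.85, -0.50 and 0.95, IL-1β arrays 1.79, 0.06 and 1.48, and IL-6 arrays 1.86, 0.77 and 1.38, so that these 3 groups overlapped control. In 5 of 5 groups the lowest Il11 level was that of run 6 to 10. Il11 rose with TGFß1 by 2.60 (SE 0.62, q = 0.00965), a 6.07-fold increase. The difference was 1.27 on slide 1 and 4.29 on slide 2, where control 6 was the only control. In the model with slide and run it was 2.73 (SE 0.16, q = 3.0e-06). Leaving out any 1 of the 6 arrays compared did not end the call. With the other cytokines the log2 fold-changes were -0.48 (TNFα), 0.20 (IL-1β) and 0.43 (IL-6), with q-values of 0.671, 1.00 and 1.00.

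Lif, which encodes leukemia inhibitory factor, was well above background on the 3 TNFα arrays and on no other array. TNFα arrays 4, 9 and 14 gave -4.94, -4.99 and -5.48, and controls gave -8.02, -7.74 and -7.26. The remaining groups lay between -7.82 and -5.40, below background throughout, and the highest of them, IL-1β 15, was above TNFα 14. Lif thus entered the test through its TNFα arrays alone, and its calls are a description and not support for a change of the family. Since control was not measurable, only a bound can be given: Lif was at least 1.22-fold higher with TNFα than in control, taking for each control array the higher of its own signal and the lowest signal of a probe well above background on that array. The measured means were -5.13 and -7.67 (q = 0.0129). That q-value used a spread estimated over all groups, of which only TNFα was above background. The call was lost without TNFα 4 (q = 0.0536). It was also lost with normexp background correction, which adds an offset of 50 to every spot. There the log2 fold-change was 0.40 (q = 0.0504), against 2.54 in the main fit, and was also below the 1.5-fold criterion.

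Clcf1 encodes cardiotrophin-like cytokine factor 1, a ligand of the CNTF and LIF receptor complex. It was above background on all arrays, between -0.60 and 0.61. Control arrays 6 and 1 were the lowest and close to the highest of the series, so that control spanned nearly the whole range, and all 4 treated groups overlapped it. The log2 fold-changes were -0.14 (TNFα), 0.06 (TGFß1), 0.22 (IL-1β) and 0.22 (IL-6), with 95% intervals that reached at most 0.80 and at least -0.71. No call was made.

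Among the ligand-binding receptors, Il6ra, the IL-6 receptor that is also shed in soluble form, was at 1.63, 2.57 and 1.87 in control arrays 1, 6 and 11. TNFα arrays 4, 9 and 14 gave 0.59, 1.19 and 0.56. TGFß1 arrays 2, 7 and 12 gave -0.66, -0.34 and -0.54. The 3 groups did not overlap, with TGFß1 lowest and TNFα between it and control. IL-1β (1.33, 2.31 and 1.57) and IL-6 arrays (1.37, 2.44 and 1.67) overlapped control, and in 5 of 5 groups the array of run 6 to 10 was the highest. Il6ra fell by 2.53 with TGFß1 (SE 0.33, q = 0.000215), that is 5.79-fold lower, and by 2.09 and 3.17 within slides 1 and 2. It fell by 1.24 with TNFα (SE 0.33, q = 0.0268), and by 1.18 and 1.68 within the slides. The TNFα call was lost without control 6, control 11, TNFα 4 or TNFα 14, where q-values were 0.0951, 0.0555, 0.103 and 0.0866. In the model with slide and run it was -1.29 (SE 0.13, q = 7.3e-05). The second Il6ra probe was called lower as well, by 1.46 with TNFα (q = 0.0298). With TGFß1 it was not well above background on any array, and was at least 4.58-fold lower than in control (measured difference -2.67, q = 0.000537). The fold-changes with IL-1β and IL-6 were -0.28 and -0.19 (both q = 1.00).

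Il11ra1 encodes the receptor that binds IL-11. The mouse genome carries a near-identical copy, Il11ra2, for which no probe was named, so that signal from its transcript cannot be told apart on this probe. Control arrays 1, 6 and 11 gave 4.55, 5.07 and 4.94. TGFß1 arrays 2, 7 and 12 gave 3.10, 3.51 and 3.54, and TNFα arrays 4, 9 and 14 gave 3.69, 4.35 and 4.15. Again the groups did not overlap and followed the order control, TNFα and TGFß1. IL-1β (4.13, 5.06 and 4.68) and IL-6 arrays (4.26, 4.87 and 4.65) overlapped control, and the array of run 1 to 5 was the lowest in 5 of 5 groups. Il11ra1 fell by 1.48 with TGFß1 (SE 0.26, q = 0.00147), and by 1.24 and 1.75 within slides 1 and 2. With TNFα the difference was -0.79 (SE 0.26, q = 0.0632), which did not pass. With slide and run in the model it was -0.79 (SE 0.09, q = 0.000198), which did. With normexp background correction it passed as well (-0.84, q = 0.0454).

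Among the signalling receptors, Il6st, which encodes gp130, was at 2.91, 3.03 and 3.06 in control arrays 1, 6 and 11. TGFß1 arrays 2, 7 and 12 gave 1.42, 1.99 and 1.45, below every array of the other groups. TNFα arrays gave 3.00, 3.22 and 3.46, IL-1β arrays 3.17, 3.48 and 3.06, and IL-6 arrays 3.30, 3.86 and 3.23. The IL-6 arrays were all above control, and so were the IL-1β arrays, the lowest of them by a margin lost to rounding. Il6st fell by 1.38 with TGFß1 (SE 0.20, q = 0.000503), by 0.99 and 1.59 within slides 1 and 2, and the second probe fell by 0.88 (q = 0.00215). With IL-1β the difference was 0.24 for the brightest probe and 0.44 for the second, and neither was called. With IL-6 the difference of the brightest probe was 0.47 (SE 0.20, q = 1.00). The second probe was at 0.64 with IL-6 (q = 0.432) and at 0.58 with TNFα (q = 0.0334, below the 1.5-fold criterion). Once slide and run were in the model, this second probe was called higher in both (0.64 with q = 0.0224 for IL-6, and 0.64 with q = 0.00134 for TNFα), while the brightest probe was not.

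Osmr, the signalling partner of gp130 in the oncostatin M receptor, had the smallest SE of the 9 members (0.15). Control arrays 1, 6 and 11 gave 4.24, 4.32 and 4.50. IL-6 arrays 3, 8 and 13 gave 4.93, 5.19 and 5.19, above every other array of the series. TNFα arrays gave 3.80, 4.02 and 4.02, and TGFß1 arrays 2.96, 3.25 and 3.45, all below control, while IL-1β arrays (4.23, 4.43 and 4.66) overlapped it. Osmr fell by 1.13 with TGFß1 (SE 0.15, q = 0.000264), and by 1.12 within both slides; its second probe fell by 1.13 (q = 0.000173). With IL-6 it was at 0.75 (SE 0.15), 1.68 times the control level, 0.69 and 0.87 within slides 1 and 2, but its q-value of 0.173 did not pass. Its second probe gave 0.73 (q = 0.154). Both were called once slide and run were in the model (q = 0.00264 and 0.00997). With TNFα the difference was -0.41 (q = 0.103).

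Lifr encodes the LIF receptor. Control arrays 1, 6 and 11 gave 0.39, 1.15 and 0.87, and TGFß1 arrays 2, 7 and 12 gave -0.37, -0.37 and 0.23, all below control. TNFα arrays gave 0.80, 1.55 and 1.15, IL-1β arrays 0.51, 1.26 and 1.51, and IL-6 arrays 0.80, 1.82 and 1.73, each overlapping control. In 5 of 5 groups the lowest array was that of run 1 to 5, in TGFß1 MEFs by a margin lost to rounding. The TGFß1 difference of -0.97 (SE 0.34, q = 0.0517) just missed the threshold, and was -0.996 and -1.22 within the slides. Both other Lifr probes were called lower with TGFß1 (-1.22 with q = 0.0124, and -0.86 with q = 0.0241). With slide in the model the brightest probe was called too (-1.10, q = 0.0179), as it was with slide and run (-1.08, q = 0.000142), and without control 1 (q = 0.0384) or TGFß1 12 (q = 0.0490). With IL-6 the difference was 0.64 (SE 0.34, q = 1.00), called only with slide and run in the model (q = 0.0491).

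**Figure D2:**
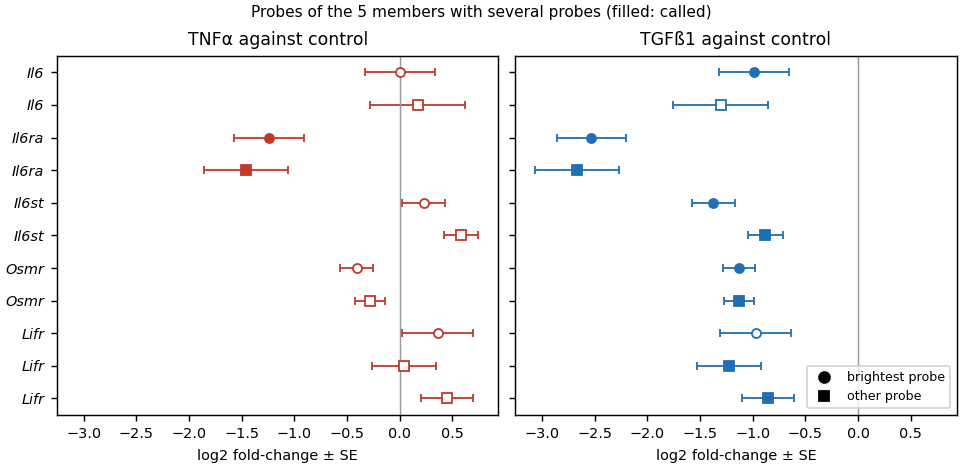
Log2 fold-change against control with its SE (x axis) for every probe of the 5 members with several probes (y axis), in MEFs treated by TNFα (left) and TGFß1 (right). Circles are the brightest probe of a gene, squares the others, and filled symbols were called. With TGFß1 all probes lay on the same side of 0, and the 2 not called were 1 of Il6 and the brightest of Lifr.

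By cytokine, TGFß1 moved the most members: 1 of 9 rose (Il11) and 5 of 9 fell (Il6, Il6ra, Il11ra1, Il6st and Osmr). Over all probes tested 7.26% were called higher and 10.7% lower with TGFß1, and the median log2 fold-change was -0.99 over the members against 0.06 over all probes. With TNFα 1 of 9 rose (Lif, tested through this group alone) and 1 of 9 fell (Il6ra), against 4.15% of all probes called higher and 6.01% lower; the medians were -0.14 and 0.04. With IL-1β limma called 0 of 9, against 0.252% of all probes. An unadjusted p under 0.05 was found for 1 of 9 members (Il6) and for 1093 of the 29333 probes tested. With IL-6 limma called 0 of 9, against 0.0682% of all probes. An unadjusted p under 0.05 was found for 3 of 9 members (Il6, Osmr and Il6st) and for 966 of the 29333 probes tested. The medians over members and all probes were 0.22 and 0.01 with IL-1β, and 0.47 and 0.00 with IL-6. These 4 comparisons share the control arrays. With slide and run in the model, the members called were 7 of 9 with TGFß1, 3 of 9 with TNFα, 1 of 9 with IL-1β and 3 of 9 with IL-6, beside 22.5%, 15.4%, 1.1% and 0.77% of all probes. The 5 of 9 members lower with TGFß1 were a larger share than the 10.7% of all probes, and 1 of 9 in either direction with TNFα is too few to set apart from 4.15% and 6.01%; no test of these shares was made.

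**Figure D3:**
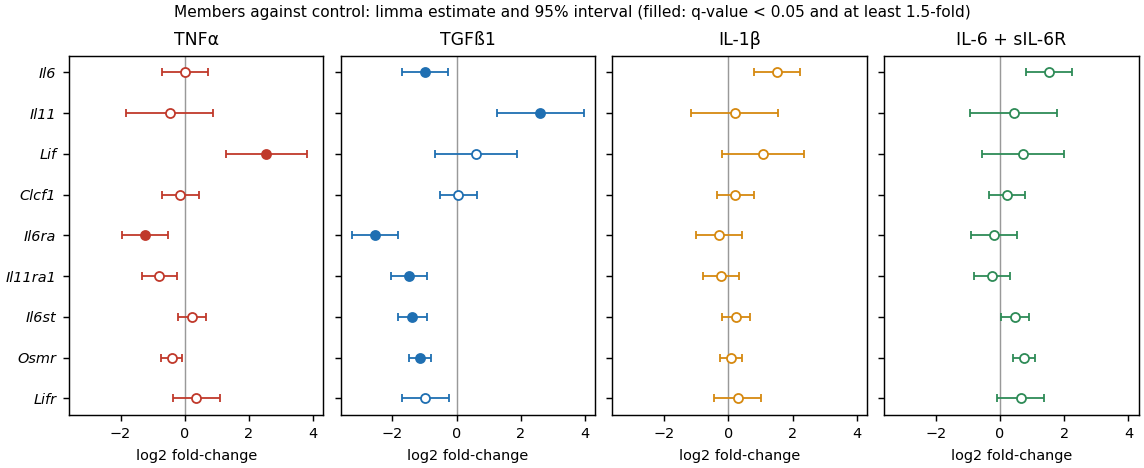
Log2 fold-change of the 9 members (y axis) against control, with the 95% interval of limma (x axis), for the 4 cytokines (panels). Filled points had a q-value under 0.05 and at least a 1.5-fold change: 2 with TNFα, 6 with TGFß1 and none with IL-1β or IL-6.

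**Figure D4:**
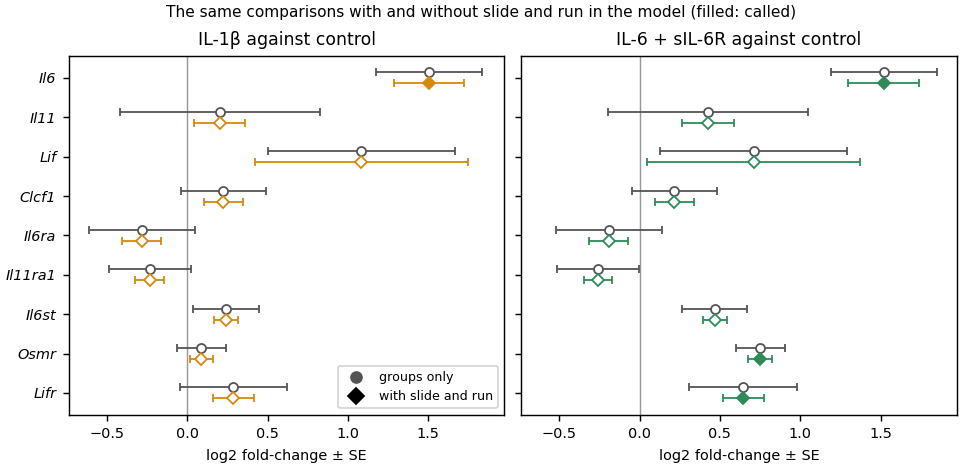
Log2 fold-change against control with its SE (x axis) for the 9 members (y axis) in IL-1β (left) and IL-6 MEFs (right), from the model with groups alone (grey circles) and with slide and run added (diamonds); filled symbols were called. The estimates are the same and the errors are smaller for all members but Lif, and Il6 became a call in both, and Osmr and Lifr with IL-6.

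Treated groups were also compared with each other, in 6 pairs and 54 tests of members, of which 23 passed. The 3 pairs with TGFß1 held 20 of these calls. TGFß1 MEFs differed from IL-6 MEFs in 7 of 9 members (16.4% of all probes), and from IL-1β MEFs in 7 of 9 (17%). In both pairs Il11 was higher with TGFß1 and Il6 and the 5 receptors were lower. The log2 fold-changes of IL-6 over TGFß1 MEFs were 2.51 for Il6 (q = 0.000226), 2.34 for Il6ra (q = 0.000377), 1.88 for Osmr (q = 6.2e-06) and -2.18 for Il11 (q = 0.0253). Those of IL-1β over TGFß1 MEFs were 2.50 for Il6 (q = 0.000249), 2.25 for Il6ra (q = 0.000515), 1.22 for Osmr (q = 0.000166) and -2.40 for Il11 (q = 0.0155). The Il11 call of the first pair was lost without TGFß1 2, TGFß1 12, IL-6 8 or IL-6 13 (q-values 0.0808, 0.0876, 0.109 and 0.0526), and that of the second without TGFß1 2, TGFß1 12 or IL-1β 10 (0.0540, 0.0585 and 0.0792). The Lifr call between IL-1β and TGFß1 (1.26, q = 0.0176) was lost without TGFß1 2, TGFß1 7, IL-1β 10 or IL-1β 15 (0.0658, 0.0584, 0.0704 and 0.0617).

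From TNFα MEFs, TGFß1 MEFs differed in 6 of 9 members (11.9% of all probes). TNFα MEFs had less Il11 (-3.08, q = 0.00463) and more Il6ra (1.29, q = 0.0182), Il6st (1.60, q = 0.000156), Osmr (0.72, q = 0.00595), Lifr (1.33, q = 0.0167) and Lif (at least 1.16-fold, q = 0.0411). The second Il6ra probe, at 1.20, did not pass (q = 0.0612). The Il6ra call was lost without TNFα 9, TGFß1 2 or TGFß1 12 (q-values 0.0843, 0.0640 and 0.0542), and the Lifr call without TNFα 9, TGFß1 2 or TGFß1 7 (0.0774, 0.0631 and 0.0650). That of Lif was lost without any 1 of TNFα 4, TNFα 9, TNFα 14, TGFß1 2 or TGFß1 12 (0.112, 0.117, 0.0680, 0.124 and 0.147). With normexp background correction it was lost as well, at a log2 fold-change of 0.21 (q = 0.359) against 1.93 in the main fit. The Osmr call was lost when arrays were scaled by their median (0.61, q = 0.0844). Without the pairs that involve TGFß1, 3 of 27 tests passed. Il6 was higher with IL-1β than with TNFα (1.51, SE 0.33, q = 0.0196), the only call of 9 members in that pair (4.87% of all probes). It was lost without TNFα 4, TNFα 14, IL-1β 10 or IL-1β 15 (q-values 0.0710, 0.0700, 0.0884 and 0.0669). Il6 and Osmr were lower with TNFα than with IL-6 (-1.52 with q = 0.0105, and -1.16 with q = 0.000360), 2 of 9 members against 8.7% of all probes, and leaving out any 1 array of these groups ended neither call. The other Il6 probe did not pass in these pairs (1.56 with q = 0.0642 for IL-1β over TNFα, and -1.49 with q = 0.0540 for TNFα over IL-6), whereas it did between TNFα and TGFß1 (1.47, q = 0.0432), where the brightest probe did not (0.99, q = 0.0637). IL-1β and IL-6 MEFs did not differ by any call of limma (0 of 9, against 0.416% of all probes). An unadjusted p under 0.05 was found for 1411 of the 29333 probes tested and for 1 of 9 members. That member was Osmr, 0.66 lower with IL-1β on the log2 scale (-0.66, q = 0.122), and the difference of Il6 was -0.01 (95% interval -0.73 to 0.70).

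With slide and run in the model, 6 more of the 54 tests passed and 0 of the 23 were lost. They were Il6 and Il11ra1 between TNFα and TGFß1 (0.99 with q = 0.00653, and 0.68 with q = 0.000324), Il6ra between IL-1β and TNFα (1.00, q = 0.000546), Il11 and Il6ra between TNFα and IL-6 (-0.78 with q = 0.00570, and -1.09 with q = 0.000204), and Osmr between IL-1β and IL-6 (-0.66, q = 0.00161). The shares of all probes called in that fit were 16.1% (TNFα and TGFß1), 10.5% (IL-1β and TNFα), 22.1% (IL-1β and TGFß1), 14.1% (TNFα and IL-6), 21.4% (IL-6 and TGFß1) and 1.77% (IL-1β and IL-6).

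Further ligands and receptors of the family were read from a list of 12 genes, of which 11 had a probe and 6 were tested. Osm, Il31 and Cntfr were above background on no array. With TNFα 1 of the 6 rose and 1 fell, and with TGFß1 1 rose and 0 fell. Among all probes, 4.15% were called higher and 6.01% lower with TNFα, and 7.26% and 10.7% with TGFß1. Il27ra, the IL-27 receptor, rose with TNFα by 2.11 (q = 0.0158), where all 3 arrays were above background, while control 11 was not. Besides TNFα, only IL-1β had all 3 arrays above background. Il27ra thus entered the test through TNFα and IL-1β arrays alone, and its call is a description. With IL-1β and IL-6 limma called 0 of the 6, and 0 had an unadjusted p under 0.05.

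Of 12 transducers behind the receptors, 0 rose and 2 fell with TGFß1, among them Stat3 by 0.84 (q = 0.0237). Stat3, the main transcription factor of the pathway, also fell by 1.01 with TNFα (q = 0.0159), the only one of 12 called there, and was at 0.55 with IL-6 (q = 1.00). With IL-1β and IL-6 limma called 0 of 12, and an unadjusted p under 0.05 was found for 0 and 1 of them. Such a p was found for 1093 and 966 of the 29333 probes tested. Over all probes tested, 7.26% were called higher and 10.7% lower with TGFß1, and 4.15% and 6.01% with TNFα. The shares called with IL-1β and IL-6 were 0.252% and 0.0682%. Counts of 1 and 2 of 12 are too few to set apart from these shares, and no test of them was made. The median over the list was -0.39 with TGFß1, -0.11 with TNFα, -0.04 with IL-1β and 0.16 with IL-6.

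Of 12 feedback genes and STAT3 targets, 3 rose and 0 fell with IL-6: Socs3, Cebpd (1.71, q = 0.00974) and Bcl3 (1.65, q = 0.00771). Socs3 encodes the inhibitor of gp130 signalling, Cebpd a transcription factor of the acute phase, and Bcl3 a member of the IkB family. Cebpd and Bcl3 were the 2 of 12 that rose with IL-1β, by 1.43 (q = 0.0127) and 1.23 (q = 0.0212). In TNFα MEFs 3 rose, namely Bcl3 (1.14, q = 0.00245), Socs1 (0.88, q = 0.0129) and Junb (0.70, q = 0.0352), and 2 fell, namely Cebpd (-1.44, q = 0.000793) and Pias3 (-0.98, q = 0.00446), which encodes an inhibitor of STAT3. With TGFß1 2 rose, namely Myc (1.52, q = 0.0187) and Junb (1.00, q = 0.00341), and 4 fell, namely Bcl3 (-1.61, q = 0.000137), Cish (-1.07, q = 0.0326), Cebpd (-0.81, q = 0.0147) and Cebpb (-0.76, q = 0.000263). Of these genes Socs1, Pias3 and Cebpb lay outside the rule for named genes and were added after their values were seen, to complete the counts. Socs3 was also higher with IL-6 than with IL-1β, TNFα or TGFß1 (-1.78 for IL-1β against IL-6 with q = 0.00180, -2.64 for TNFα against IL-6 with q = 5.8e-06, and 2.60 for IL-6 against TGFß1 with q = 4.2e-06). Beside these counts of 12, calls in either direction made up 0.0682% of the probes tested for IL-6 and 0.252% for IL-1β. Rises made up 4.15% of them for TNFα and 7.26% for TGFß1, and falls 6.01% and 10.7%. The counts were not tested against these shares. The median over the list was 0.57 with IL-6, 0.31 with IL-1β, -0.07 with TNFα and -0.20 with TGFß1.

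**Figure D5:**
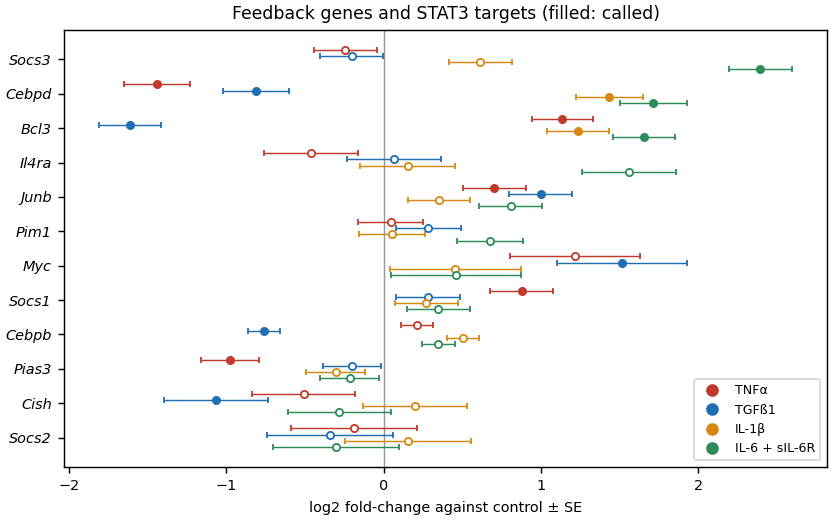
Log2 fold-change against control with its SE (x axis) for the 12 feedback genes and STAT3 targets (y axis, ordered by the IL-6 value), with 1 colour per cytokine and filled symbols for calls. Socs3, Cebpd and Bcl3 were called higher with IL-6, and Bcl3 and Cebpd were called lower with TGFß1.

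Regulators of Il6 transcripts were read as well. Nfkbiz, which encodes a nuclear partner of NF-kB at the Il6 gene, rose with IL-1β by 1.49 (q = 0.000517) and with IL-6 by 1.35 (q = 0.00396). It was the only 1 of 7 called in either, against 0.252% and 0.0682% of all probes. It was at 0.41 with TNFα (q = 0.0825) and 0.23 with TGFß1 (q = 0.264). Arid5a, which encodes a protein that stabilises Il6 transcripts, rose with TNFα by 1.27 (q = 0.00620) and with TGFß1 by 1.94 (q = 0.000220). Zfp36, which encodes a protein that promotes their decay, rose with TNFα by 0.79 (q = 0.00199), and Zc3h12a, an RNase of the same transcripts, rose with TGFß1 by 2.22 (q = 0.0205), with control 11 not well above background. It was at 2.89 with IL-1β (q = 0.120) and 1.67 with TNFα (q = 0.103), which did not pass. Zc3h12a entered the test through its TNFα, TGFß1 and IL-1β arrays alone, and its call is a description. Neither Adam10 nor Adam17, the proteases that shed the IL-6 receptor, was called by limma with any of the 4 cytokines. Their log2 fold-changes lay between -0.38 and 0.18, and 1 of these 8 values had an unadjusted p under 0.05 (Adam10 with TNFα, q = 0.0290, below the 1.5-fold criterion).

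The genes whose levels followed each member most closely over the 15 arrays were ranked by Pearson r, as a description over arrays that share 5 treatments. For Il6 they were Susd6 (0.935) and Pak3 (0.902), for Il11 Nectin1 (0.959), Rasl12 (0.958) and Baalc (0.957), and for Lif Acod1 (0.854), A930015D03Rik (0.834) and Gm11351 (0.823). Lif was well above background on only 3 of the 15 arrays, those of TNFα, so its values of r rest mostly on signal below background. Clcf1 was nearest to Zfp365 (0.887), G2e3 (0.863) and Frs2 (0.860). Among receptors, Il6ra was nearest to Gstk1 (0.989), Kitl (0.987) and Mrgprf (0.987), and Il11ra1 to Glb1l (0.980), Trmt2b (0.979) and Lynx1 (0.979). Il6st was nearest to Mt1 (0.978), Ifi202b (0.976) and Xdh (0.973), Osmr to Dpy19l3 (0.968), Tmprss6 (0.965) and Urah (0.954), and Lifr to Sik1 (0.948), Slc39a1 (0.933) and Vwa5a (0.930).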

How the data were processed

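Total RNA of 15 MEF cultures was labelled with Cyanine 3 and hybridised to Agilent one-colour arrays (60-mer probes, mm9 design). The deposited files hold, for each spot, the processed signal intensity of Agilent Feature Extraction 10.7.3.1, that is brightness after background subtraction and detrending, with no normalization between arrays; the authors' joint table of all arrays repeats these intensities (largest difference 0). The authors name limma with thresholds of 0.05 for q-values and 1.5 for the absolute fold-change, and Z-scores in connection with their hierarchical clustering; a normalization between arrays or a filter before the fit is not given in the sources used here. The study states 3 independent experiments.

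For the present values, control spots and spots marked as non-uniform or population outliers were left out, the mean log2 intensity of a probe's spots was taken relative to the 75th percentile of its array. A probe was tested if 1 or more groups had it well above background on all 3 arrays (29333 of 56605). One limma fit (limma 3.58.1, R 4.3.3) held all 15 arrays with no block, gave all 10 comparisons, and q-values are Benjamini-Hochberg adjusted over all probes tested, two-sided. SE are those of limma and SD were not used for tests. No arrays carry counts. Each group mean rests on 3 arrays, and limma estimated the spread of a probe over all 15 arrays. Probes were named through RefSeq transcripts (33767 of 56605 named), and a gene is given by its brightest probe. The members and gene lists were chosen with earlier results of these data known. All members were named with all their probes; of each other list, called genes were named by size of change, up to 6, and Socs3 always. A few genes that these rules name are not reported here. The fit was tested on simulated data. Alternatives were normexp on median spot brightness (the files hold no mean), quantile or median scaling, other filters, thresholds, probe averaging, slide with and without run as blocks, the compared groups alone, and each array left out. Pairing by run is not stated in the labels: with slide and group removed, all 30 same-run pairs of arrays had an r over 0.1. Promoters were searched with Python 3.11.15, and protein sequences were not used here.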

Additional observations from a re-analysis of the deposited data

How the results depend on the processing

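Alternatives to the processing changed the number of members called against control as follows. With TNFα, where 2 were called, 1 was called with no filter on dim probes (Il6ra lost), with probes above background on all arrays (Lif not tested) and with only the arrays of the 2 groups compared (Il6ra lost), and 0 to 2 when 1 array was left out. The count of 0 came without TNFα 4. The TNFα count was 3 with slide and run as blocks (Il11ra1 gained). With normexp Il11ra1 was gained and Lif was lost. With slide and run as blocks 1 member was called with IL-1β and 3 with IL-6, where 0 were called otherwise; the 6 fits of each comparison that left out 1 array gave 0 to 0. The TGFß1 count of 6 ranged from 5 to 7 over 12 alternatives and from 5 to 7 when 1 array was left out, and the 23 calls between treated groups ranged from 21 to 29 and from 17 to 25. Of the 8 calls against control, 5 held in every alternative and with each array left out (Il11, Il6ra, Il11ra1, Il6st and Osmr with TGFß1), and 15 of the 23 calls between treated groups did. The Il6 call with TGFß1 held in 6 of 12 alternatives and was lost, among others, with normexp (-0.41, q = 0.228) and with quantile scaling (-0.95, q = 0.0597). The causes were not tested. Of 1604 values recomputed for single members, 50 changed sign, 0 of them called in either fit, and the largest of these was 0.48 in size on the log2 scale. The labels give no replicate numbers that groups share, so the main fit used no pairing. The runs of label numbers entered only the alternative with slide and run as blocks.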
